A study of Mus musculus with 4 samples.

Results

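Aminoacyl-tRNA synthetases join each amino acid to its transfer RNA, and the enzymes of serine, glycine and folate metabolism make amino acids and the one-carbon units used for nucleotides and methylation. In many cell types both groups are switched on by ATF4, the transcription factor that answers to amino acid shortage and to stress of the endoplasmic reticulum, the compartment that beta cells load with proinsulin. Tryptophanyl-tRNA synthetase, encoded by Wars, stands apart because its gene is known from human cells to respond to interferon. The members described here are 34 genes given as a list of symbols. They are 19 synthetase genes that serve the cytosol, Wars, 3 genes of serine synthesis, 4 of the folate-linked one-carbon pathway, 2 of proline synthesis, 3 of amino acid transport and 2 of transsulfuration. All 34 symbols were found among the 24421 rows of the deposited table, and 33 passed the filter on low values and were tested.

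The values come from RNA sequencing of pancreatic islets isolated from C57BL/6 mice of wild-type genotype, in 4 libraries. In 2 of them the islets were untreated by the labels, and in 2 they had received the preparation the labels call cytoEV daily for 48 h. All islets recovered overnight and were kept in RPMI medium with 11 mM glucose. By the series title the agent is a preparation of small extracellular vesicles, particles released by cells, here from pro-inflammatory beta cells. The table names its control columns in a way that reads as control EV, which the label untreated does not match, so the first pair is called control islets below. Whether the 2 samples of a group were separate animals or separate cultures is not in the labels, nor is the time that control islets were kept, so the spread behind each p-value is that between these samples and may be technical. The libraries held between 129726756 and 156183968 reads, and the summed insulin genes Ins1 and Ins2 took between 17.5% and 20.7% of them. Whole islets were sequenced, so for every gene below fewer cells of a type and less RNA per cell cannot be told apart.

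Promoter sequence was matched for 24 of the 34 genes in RefSeq (GRCm38.p6), as 25 windows from 250 bases before to 50 after a start site. Wars was not among the 24, so its promoter was searched for none of the motifs below. The windows were searched on both strands for the core of the C/EBP-ATF response element, TGATGNAA, to which ATF4 is known to bind with a C/EBP partner. It occurred in the windows of 6 of the 24 genes, against 3.97% of the 32851 windows of all genes. A match in each of the 6 genes is shown in capitals with its surroundings, because these are the letters the genes share. All are written 5′ to 3′ on the strand of the gene, with the offset of the first capital from the start site, and where the element lies on the other strand the capitals are its reverse complement.
Aars (chr8:111033840-111033869, plus strand, offset 10): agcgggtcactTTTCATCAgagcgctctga
Gars (chr6:55037960-55037989, plus strand, offset -30): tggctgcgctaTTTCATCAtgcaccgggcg
Iars (chr13:49682126-49682155, plus strand, offset 8): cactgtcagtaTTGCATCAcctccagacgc
Pycr1 (chr11:120643833-120643862, minus strand, offset -103): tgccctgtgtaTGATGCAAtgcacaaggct
Tars (chr15:11399655-11399684, minus strand, offset -15): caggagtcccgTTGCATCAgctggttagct
Yars (chr4:129189895-129189924, plus strand, offset 4): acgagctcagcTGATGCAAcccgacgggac

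Among the matches shown the pyrroline-5-carboxylate reductase gene Pycr1 and the tyrosyl synthetase gene Yars carry the element in the direction of the gene, and the other 4 lie the other way. Aars held another match, at offset -112 and also on the other strand, which is not shown. The interferon-gamma activated site, TTCNNNGAA, occurred in the windows of 4 of the 24 genes (Aars, Aldh18a1, Kars and Shmt2), against 8.3% of all windows. The interferon-stimulated response element core, GAAANNGAA, occurred in 1 of the 24 (Qars), against 8.56%. No match of one motif overlapped a match of another. A match is a string of letters and not a measured binding site. The log2 changes of the 6 genes with the C/EBP-ATF core, described further on, ranged from -0.28 for Tars to 0.03 for Gars, and none of the 6 passed in limma or edgeR, while DESeq2 called Tars lower. For Psat1, the member with the largest difference between the groups, neither of its 2 windows held any of the 3 motifs in these letters. The annotated span of the gene reaches further, to position 15947337, and no window there was searched. The 250 bases before the outer of the 2 start sites searched are given here.
Psat1 (chr19:15925060-15925309, minus strand): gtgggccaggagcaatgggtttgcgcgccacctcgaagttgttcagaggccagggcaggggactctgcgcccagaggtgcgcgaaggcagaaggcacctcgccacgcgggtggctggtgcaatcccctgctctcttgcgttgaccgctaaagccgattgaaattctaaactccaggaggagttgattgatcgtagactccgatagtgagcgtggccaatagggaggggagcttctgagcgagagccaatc

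The clearest difference among the members lay in serine synthesis, the short pathway that draws a glycolytic intermediate into serine. Psat1 encodes phosphoserine aminotransferase, the middle enzyme of the pathway. The gene spans positions 15904678 to 15947337 of chromosome 19, minus strand (GENCODE M21, GRCm38), and overlaps the span of the predicted gene Gm3329 on the opposite strand. Its level was 138.6 and 147.8 CPM (each library's reads scaled to a total of 1000000) in the control libraries and 93.7 and 85.6 CPM in the cytoEV libraries. Both cytoEV libraries were thus below both controls, and the gap between the groups was several times the distance within either pair. Psat1 fell from 143.2 ± 6.50 to 89.6 ± 5.69 CPM (SD, n = 2 each), a ratio of 0.626. The log2 change was -0.67 ± 0.09 (SE, 95% interval -0.88 to -0.47) on the log2(CPM + 1) scale, with a Benjamini-Hochberg adjusted p of 0.00335 over 12780 genes in limma. The count tests on the recovered reads gave adjusted p = 0.00549 in edgeR and 3.42e-10 in DESeq2. Without cytoEV replicate 2 the log2 change was -0.61 and the limma adjusted p was 0.0686.

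Psat1 was the only one of the 33 tested members that passed in limma, and none was higher. Over all 12780 genes tested, 3.51% passed as lower and 3.16% as higher, so a single call among 33 is near the share for the table as a whole. EdgeR called the same single member, with 3.15% of all genes lower and 2.52% higher. DESeq2 called 8 members lower and 0 higher, with 6.61% of all genes lower and 5.83% higher. At an unadjusted p under 0.05, limma had 11 of the 33 lower and 0 higher, where the shares of all genes were 11.3% lower and 12.0% higher. In 30 of the 33 the log2 change was below 0, against 48.8% of all genes. The groups did not overlap in 22 of them, with the cytoEV libraries lower in 21 and higher in 1. Over all genes tested these shares were 26.1% and 27.8%. The median log2 change of the 33 was -0.19, while that of all genes was 0.01. With 2 libraries against 2, the smallest two-sided p of an exact permutation test on 1 gene is 0.333, and the calls therefore depend on limma's pooling of the spread over genes.

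**Figure D1:**
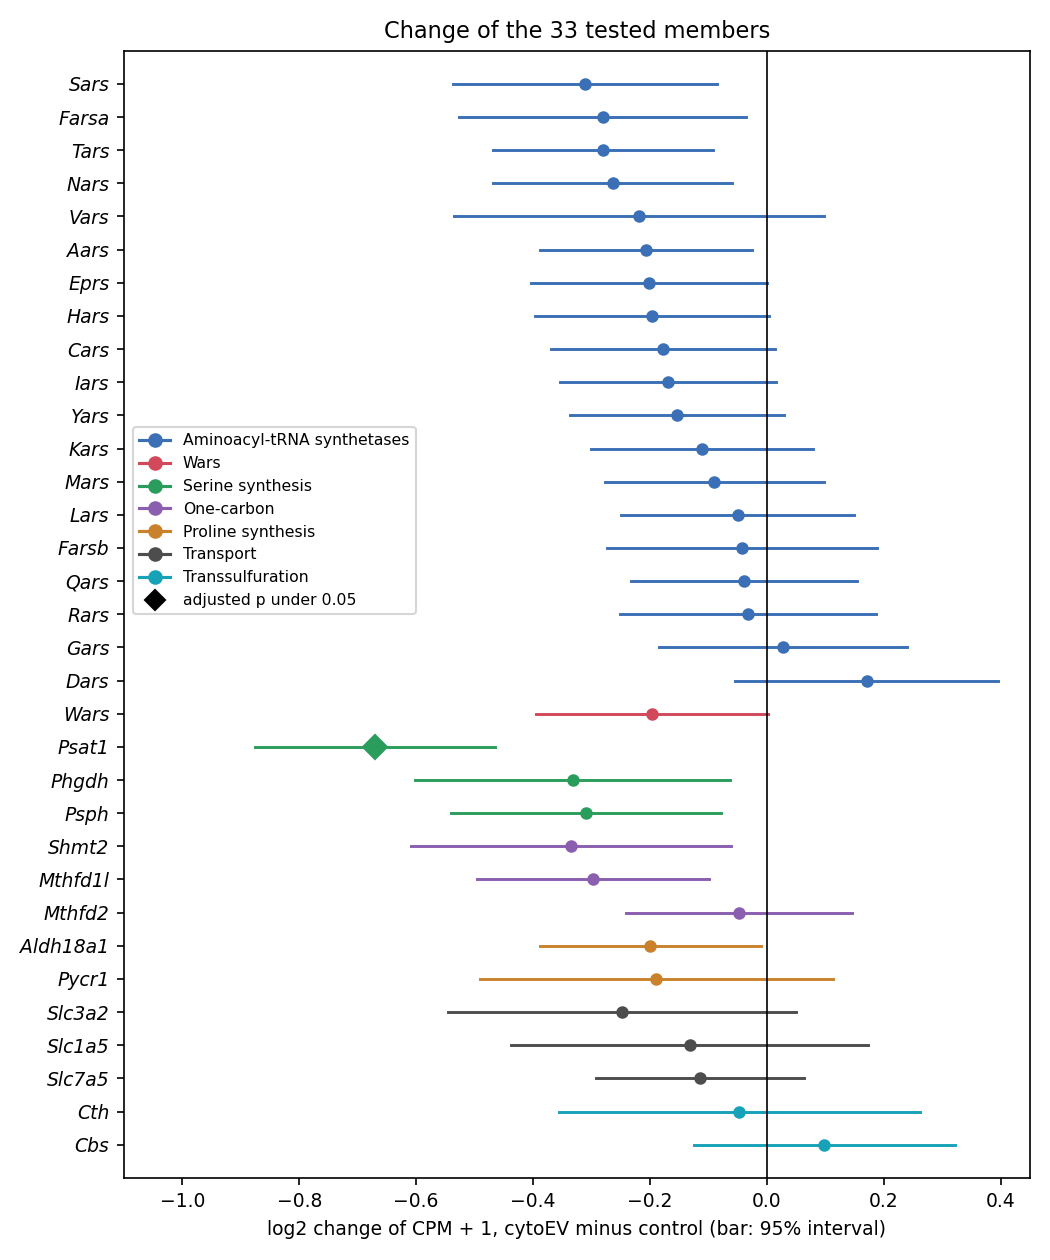
Log2 change of CPM + 1 (cytoEV minus control, horizontal axis) for each of the 33 tested members, ordered within 7 role groups shown by colour. Points are estimates and bars their 95% intervals. Psat1, the diamond at -0.67, is the one member past an adjusted p of 0.05, and most other points lie between 0 and -0.35.

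The other serine synthesis genes lay in the same direction without passing. Phgdh encodes phosphoglycerate dehydrogenase, the entry enzyme. It stood at 97.9 and 77.0 CPM in control and at 68.9 and 68.7 CPM in cytoEV islets. Its controls differed from each other by more than the nearer of them differed from the cytoEV pair. The log2 change was -0.33 ± 0.12 (SE, limma adjusted p = 0.136). Of its 50-base stretches 47.8% also occur in other gene models, chiefly the predicted gene Gm7901, so its separate value is uncertain. Psph encodes the phosphatase of the final step, and its CPM was 38.5 and 34.7 in control and 30.2 and 28.5 in cytoEV islets. For Psph the groups did not overlap and the log2 change was -0.31 ± 0.10 (SE, limma adjusted p = 0.109). DESeq2 called both genes lower, with adjusted p = 0.0441 for Phgdh and 0.0427 for Psph.

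The one-carbon genes pass serine's carbon to folate and on to formate. Shmt2 encodes the mitochondrial hydroxymethyltransferase that turns serine into glycine. Its CPM was 64.1 and 51.3 in control and 43.5 and 47.1 in cytoEV islets, and the log2 change of -0.33 ± 0.12 (SE) did not pass in limma (adjusted p = 0.138). Mthfd1l, whose enzyme releases formate in mitochondria, had 64.2 and 66.2 CPM against 52.7 and 53.1 CPM. Its 2 pairs were each tight and lay well apart, with an estimated log2 difference of -0.30 ± 0.09 (SE, adjusted p = 0.0813 in limma). DESeq2 called both lower (adjusted p = 0.0483 for Shmt2 and 0.0194 for Mthfd1l). Mthfd2, the mitochondrial dehydrogenase between them in the pathway, overlapped between the groups, at 164.5 and 179.5 CPM against 165.2 and 167.3 CPM. The 95% interval of its log2 change ran from -0.24 to 0.15. The cytosolic isoenzyme gene Shmt1 was not tested. It had 31 and 64 reads in control and 53 and 45 in cytoEV islets, between 0.239 and 0.410 CPM.

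**Figure D2:**
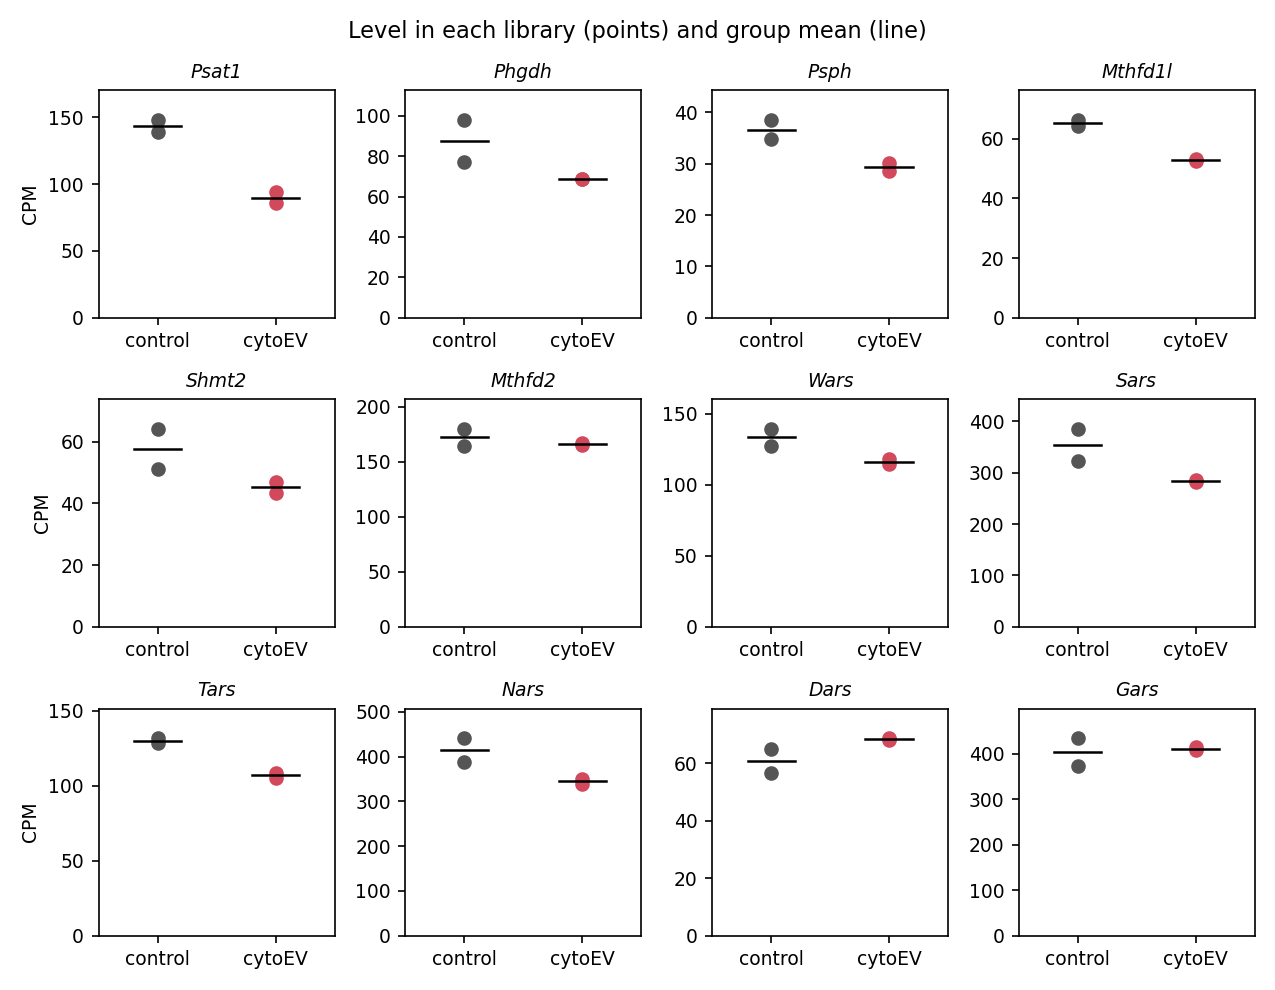
CPM in each library (points, vertical axis from 0) and the group mean (line) for 12 members in control and cytoEV islets. For Psat1 the cytoEV points at 93.7 and 85.6 CPM lie below the control points at 138.6 and 147.8 CPM, while those of Mthfd2 and Gars lie within the control range.

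The value of Wars lay within the range of the other synthetases. The gene spans positions 108860030 to 108894174 of chromosome 12, minus strand. Its level was 139.1 and 127.4 CPM in control and 114.3 and 117.9 CPM in cytoEV islets, so that both cytoEV libraries were the lower ones. The log2 change was -0.20 ± 0.09 (SE) and did not pass (limma adjusted p = 0.221, edgeR 0.203, DESeq2 0.184). Its 95% interval ran from -0.39 to 0.00 (upper bound 0.0027). In the same libraries all 18 interferon reference genes tested, such as Irf1, were called higher in limma, against 3.16% of all genes tested. EdgeR called 16 of these 18 higher and DESeq2 18, against 2.52% and 5.83% of all genes. Their median log2 change in limma was 2.15, with a range from 0.47 to 4.58. This list was chosen with earlier results of these data known. Without control replicate 2 the log2 change of Wars was -0.26 and passed as lower (adjusted p = 0.00684). The annotated span of Wars overlaps those of Wdr25 and 5033424D13Rik on the opposite strand, and no source used here gives whether reads were counted by strand.

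None of the 19 other synthetase genes passed in limma in either direction, and edgeR called 0 as well. At an unadjusted p under 0.05 limma had 5 of them lower and 0 higher, and DESeq2 called 3 lower and 0 higher. Over all genes tested these shares were 11.3% and 12.0% for limma, and 6.61% and 5.83% for DESeq2. The median log2 change of the 19 was -0.17, with a range from -0.31 to 0.17. In 17 of the 19 it was below 0, against 48.8% of all genes tested. Summed over the 19 genes, the level was 3540 and 3674 CPM in control and 3248 and 3228 CPM in cytoEV islets, a difference in means of -10.2%.

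The 5 with the smallest p were Tars, Sars, Nars, Aars and Farsa. Tars, the threonyl synthetase gene, had 128.3 and 131.7 CPM in control and 105.1 and 108.5 CPM in cytoEV islets. Its pairs were tight and did not overlap (log2 change -0.28 ± 0.08 SE, limma adjusted p = 0.0813). Sars, the seryl synthetase gene, had 384.9 and 322.5 CPM against 286.2 and 281.6 CPM. It had the largest estimate of the 19, -0.31 ± 0.10 (SE, limma adjusted p = 0.101), and its control libraries differed more than its cytoEV libraries. Nars, the asparaginyl synthetase gene, had 388.1 and 441.4 CPM against 350.4 and 338.7 CPM (log2 change -0.26 ± 0.09 SE, limma adjusted p = 0.120). These 3 were the synthetase genes that DESeq2 called lower, with adjusted p = 0.0221, 0.0333 and 0.0384. Aars, the alanyl synthetase gene, had 360.6 and 340.0 CPM against 303.0 and 303.4 CPM. Farsa, for the catalytic chain of the phenylalanyl enzyme, had 45.4 and 38.5 CPM against 34.7 and 33.7 CPM. Neither passed (limma adjusted p = 0.161 and 0.162), and 13.5% of the 50-base stretches of Aars also occur in other gene models, chiefly Exosc6. Farsb, for the other chain of the same enzyme, overlapped between the groups at 47.7 and 55.0 CPM against 48.9 and 50.6 CPM.

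Several synthetases are held in a large multisynthetase complex with the scaffold proteins of Aimp1, Aimp2 and Eef1e1. The 8 complex genes among the members, Eprs, Iars, Lars, Mars, Qars, Rars, Kars and Dars, had a median log2 change of -0.07, and that of the 11 outside it was -0.21. The difference between these medians was not tested, and the grouping was made after the values were seen. Eprs, for the bifunctional glutamyl-prolyl enzyme, had 386.6 and 438.3 CPM in control and 363.3 and 352.6 CPM in cytoEV islets. Iars had 186.2 and 196.7 CPM against 169.6 and 170.8 CPM. Both were without overlap, yet neither passed (limma adjusted p = 0.217 and 0.254). For Kars, Mars and Qars the cytoEV libraries were also the lower ones, by at most 0.11 on the log2 scale in the group means. The transcript ends of Mars and Ddit3 overlap on opposite strands, and of the 50-base stretches of Iars 7.15% also occur in other gene models, chiefly Gm4849. Lars and Rars overlapped between the groups, with log2 changes of -0.05 and -0.03. Dars, the aspartyl synthetase gene, was the only synthetase gene among the members with both cytoEV libraries higher. It had 68.2 and 68.7 CPM against 56.6 and 65.1 CPM in control (log2 change 0.17 ± 0.10 SE, limma adjusted p = 0.339).

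Outside the complex, Cars, Hars and Yars were lower in both cytoEV libraries by 0.15 to 0.20 in the log2 group means without passing. Cars, the cysteinyl gene, had 151.2 and 160.9 CPM against 140.3 and 135.4 CPM (limma adjusted p = 0.244). Hars, the histidyl gene, had 66.2 and 69.5 CPM against 59.5 and 58.7 CPM (limma adjusted p = 0.221), and its annotation overlaps that of Hars2 on the opposite strand. Yars had 144.0 and 144.8 CPM against 130.2 and 129.1 CPM (limma adjusted p = 0.290). Vars, the valyl gene, had control libraries as far apart as 77.4 and 56.7 CPM, and its cytoEV values of 55.4 and 58.3 CPM overlapped the lower of them. Gars, the glycyl gene, had 373.8 and 434.6 CPM in control and 414.3 and 407.8 CPM in cytoEV islets, with both cytoEV libraries inside the control range.

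The proline, transport and transsulfuration genes held no call in limma, edgeR or DESeq2, and of these 7 only Aldh18a1 had an unadjusted limma p under 0.05. Aldh18a1 encodes the enzyme that starts proline synthesis from glutamate. Its CPM was 263.8 and 245.6 in control and 217.1 and 226.2 in cytoEV islets (log2 change -0.20 ± 0.08 SE, limma adjusted p = 0.194). Pycr1, of the last step in mitochondria, overlapped, at 54.1 and 41.5 CPM against 39.4 and 43.7 CPM. Slc3a2 and Slc7a5 encode the heavy and light chains of the leucine transporter LAT1. Slc3a2 had the widest pairs of the transport genes, 227.5 and 284.7 CPM in control and 236.5 and 193.9 CPM in cytoEV islets. Slc7a5 was without overlap, at 307.8 and 299.95 CPM against 276.9 and 284.3 CPM, and its log2 estimate was -0.11 ± 0.08 (SE, adjusted p = 0.424 in limma). Slc1a5, a glutamine transporter gene, was low throughout, between 4.64 and 6.10 CPM. Cbs and Cth encode the enzymes that carry homocysteine to cysteine. Cbs had 91.2 and 78.5 CPM against 90.6 and 90.8 CPM, and Cth stayed between 1.09 and 1.41 CPM.

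Per length, the members spanned a wide range of control levels. Divided by the exon length annotated for all isoforms together, the highest was Gars at 129.6 CPM per kb, before Nars at 95.2, Slc7a5 at 82.0, Slc3a2 at 72.6 and Mars at 72.2 CPM per kb. Psat1 was at 33.7 and Phgdh at 35.2 CPM per kb, and Wars at 38.7 CPM per kb. At the other end stood Slc1a5 at 1.36, Cth at 0.465 and Shmt1 at 0.0835 CPM per kb. These lengths include exons that islets may not use, so neighbours in this order, such as Slc3a2 and Mars, are not told apart.

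The spread behind these values came mostly from the control pair. In 25 of the 33 tested members the 2 control libraries differed more than the 2 cytoEV libraries. The median absolute log2 difference within the pair was 0.14 in control and 0.04 in cytoEV islets, and over all tested genes 0.17 and 0.07. In 13 members the distance between the controls was larger than the distance between the group means. The controls did not differ in one direction, since 14 members were higher in control replicate 1 and the rest in control replicate 2. Without control replicate 1 limma called 7 of the 19 synthetase genes lower (Cars, Eprs, Hars, Iars, Nars, Sars and Tars), and without control replicate 2 it called 6 lower (Aars, Farsa, Nars, Sars, Tars and Vars) and Dars higher. Without either cytoEV library it called 0. Without control replicate 1 the 14 other members gave 3 lower calls (Mthfd1l, Psat1 and Slc3a2) and Cbs as higher. Without control replicate 2 they gave 7 (Aldh18a1, Mthfd1l, Phgdh, Psat1, Psph, Pycr1 and Shmt2), without cytoEV replicate 1 only Psat1, and without cytoEV replicate 2 they gave 0. These runs take the remaining single library to be as variable as the pair.

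**Figure D3:**
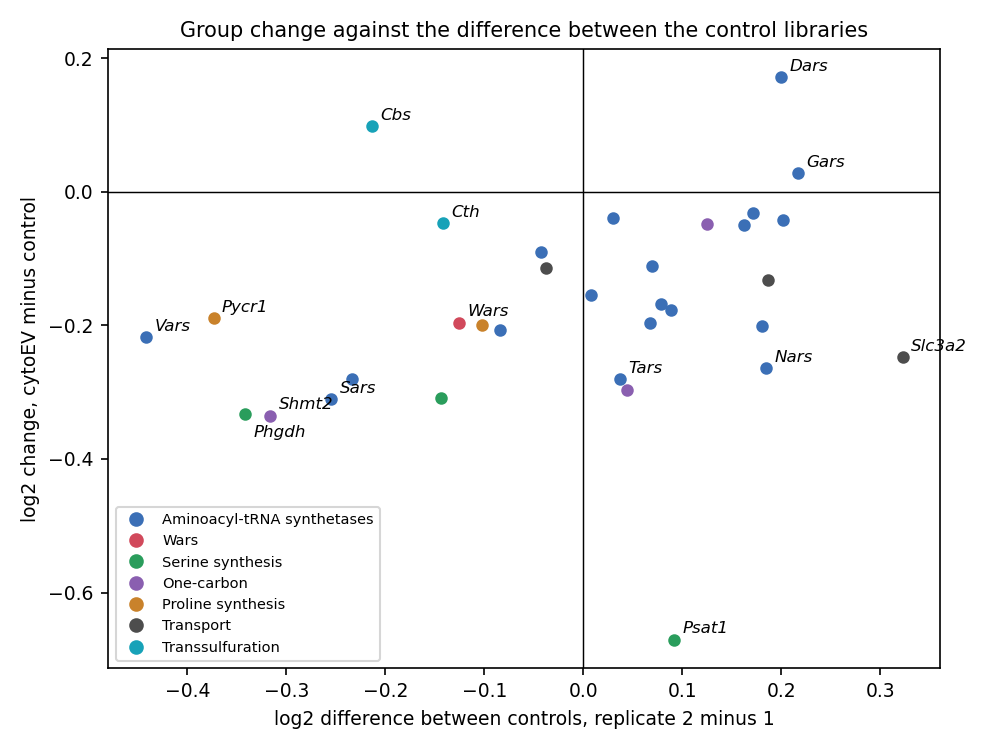
Log2 change of each of the 33 tested members (cytoEV minus control, vertical axis) against the log2 difference between the 2 control libraries (replicate 2 minus replicate 1, horizontal axis), coloured by role. Psat1 lies at -0.67 with controls 0.09 apart, whereas Vars and Phgdh, at -0.22 and -0.33, have controls that differ by -0.44 and -0.34.

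Among genes near these pathways, 3 of 105 tested were called higher and 6 lower in limma, against 3.16% and 3.51% of all genes tested. The 17 mitochondrial synthetase genes held 0 calls in limma and edgeR and 1 in each direction in DESeq2, with a median log2 change of -0.01 and 1 gene in each direction at an unadjusted limma p under 0.05. Cars2 had control values of 20.9 and 18.004 CPM and cytoEV values of 14.5 and 14.7 CPM, and Rars2 24.2 and 30.5 CPM against 37.2 and 33.8 CPM. Neither passed in limma (adjusted p = 0.0827 and 0.122). Among 10 synthetase partners Aimp2 fell, from 18.5 ± 0.571 to 13.5 ± 0.308 CPM (SD, n = 2 each, limma adjusted p = 0.0466), a call that 7 of 18 alternatives lost, among them those without cytoEV replicate 1 and without cytoEV replicate 2 (adjusted p = 0.581 and 0.397). The other scaffold genes did not pass. Aimp1 had 37.1 and 42.4 CPM against 39.2 and 40.0 CPM, and Eef1e1 had 10.4 and 12.6 CPM against 9.81 and 9.26 CPM.

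The other folate and methionine cycle genes held 0 calls among 25 tested in limma and edgeR, and DESeq2 had 2 lower. At an unadjusted limma p under 0.05, 3 were higher and 2 lower, and their median log2 change was -0.02. Fpgs, which retains folates in the cell, had 28.4 and 23.3 CPM in control and 18.5 and 20.2 CPM in cytoEV islets (limma adjusted p = 0.0930). Ggh, whose enzyme reverses that step, had 13.9 and 15.9 CPM against 19.3 and 18.4 CPM (limma adjusted p = 0.124). Of 19 other amino acid transporters 2 rose and 0 fell in limma and in edgeR, with a median log2 change of -0.08. At an unadjusted limma p under 0.05, 7 of the 19 were lower and 2 higher, and DESeq2 called 3 lower and 2 higher. Over all genes tested these shares were 11.3% and 12.0% for limma, and 6.61% and 5.83% for DESeq2. The 3 that DESeq2 called lower, named after their values were seen, were Slc7a11, Slc6a17 and Slc38a2, with limma adjusted p = 0.0996, 0.0554 and 0.114. The cationic amino acid transporter gene Slc7a2 rose from 456.9 ± 46.1 to 624.4 ± 18.8 CPM (SD, n = 2 each, limma adjusted p = 0.0232), and the neutral amino acid transporter gene Slc43a2 rose from 179.7 ± 2.53 to 233.2 ± 3.73 CPM (limma adjusted p = 0.0275). In limma these adjusted p were 0.434 and 0.538 without cytoEV replicate 1, and 0.240 and 0.549 without cytoEV replicate 2. Of 12 other proline, asparagine and glutamine enzymes 2 fell in limma and 0 rose, with 4 lower and 0 higher at an unadjusted p under 0.05 and a median log2 change of -0.18. DESeq2 called 2 lower as well. Gls2, a glutaminase gene, fell from 4.38 ± 0.4501 to 2.36 ± 0.726 CPM, and Oat, the ornithine aminotransferase gene, from 13.8 ± 0.864 to 9.72 ± 0.551 CPM (SD, n = 2 each, limma adjusted p = 0.0435 and 0.0466). In edgeR neither of these passed (adjusted p = 0.0849 and 0.0508). Limma lost both without cytoEV replicate 2 (adjusted p = 0.308 for Gls2 and 0.248 for Oat) and lost Oat without cytoEV replicate 1 (0.565).

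Of 22 amino acid stress regulators tested, 3 fell and 1 rose in limma, with a median log2 change of -0.22. At an unadjusted limma p under 0.05, 11 of the 22 were lower and 1 higher, against 11.3% and 12.0% of all genes tested. EdgeR called 4 lower and DESeq2 7 lower, each with 1 higher. Over all genes tested limma called 3.51% lower and 3.16% higher. The shares were 3.15% and 2.52% in edgeR, and 6.61% and 5.83% in DESeq2. Nupr1, a stress-induced chromatin protein gene, had control values of 133.1 and 131.0 CPM and cytoEV values of 78.1 and 83.9 CPM. It fell by 0.70 on the log2 scale (SE 0.09, adjusted p = 0.00202 in limma), and that call held in all 18 alternatives. Ddit3, which encodes the transcription factor CHOP, fell by 0.60 on the log2 scale, and Ppp1r15a, for the phosphatase subunit that reverses eIF2 phosphorylation, by 0.47 (limma adjusted p = 0.0134 and 0.0224). Eif2ak2, the interferon-inducible eIF2 kinase gene, rose by 0.48 (limma adjusted p = 0.0314). Leaving out cytoEV replicate 1 ended these 3 calls (limma adjusted p = 0.161, 0.371 and 0.504), as did leaving out cytoEV replicate 2 (0.0509, 0.242 and 0.184). Atf4 itself, singled out after its values were seen, had 511.9 and 539.1 CPM in control and 425.4 and 432.4 CPM in cytoEV islets. Its log2 change of -0.29 ± 0.08 (SE) did not pass in limma (adjusted p = 0.0631) and passed in edgeR (0.0475) and DESeq2 (0.0107).

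**Figure D4:**
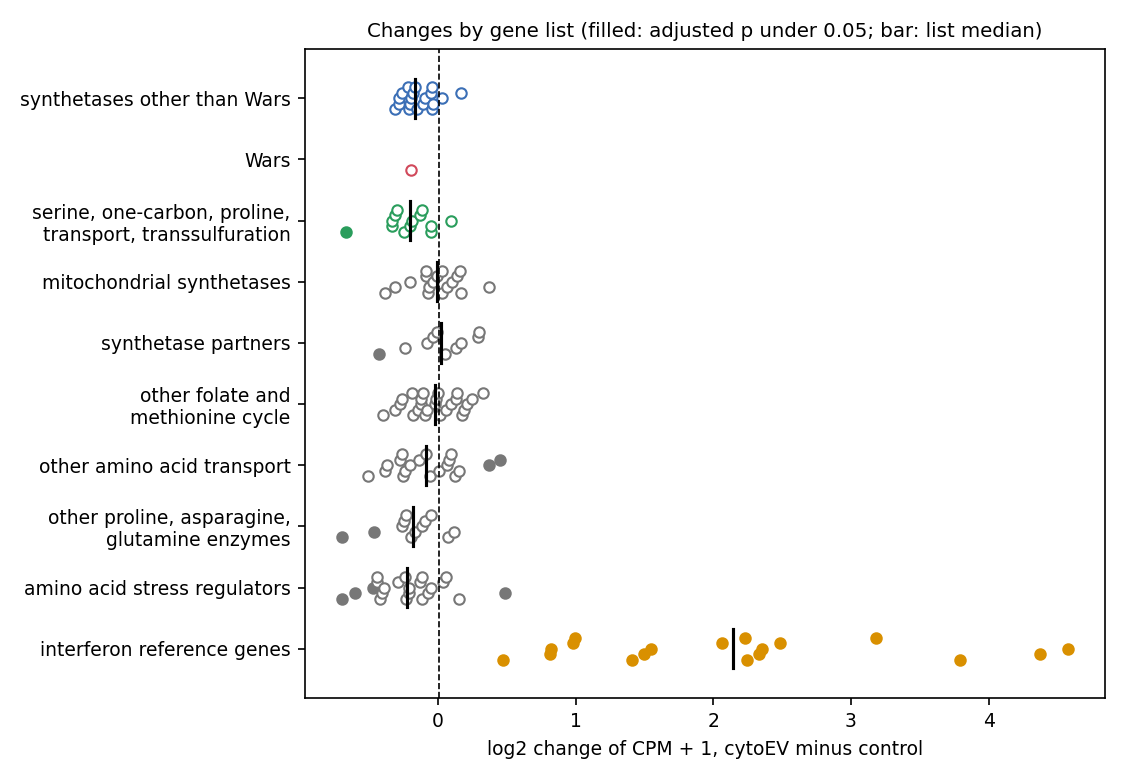
Log2 change of CPM + 1 (cytoEV minus control, horizontal axis) for the tested genes of each list, with filled points for an adjusted p under 0.05, bars at the list medians and a dashed line at the median of all genes. The synthetase median is -0.17 and Wars is at -0.20, while the 18 interferon reference genes all lie at 0.47 or above.

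Markers of other cell types moved in the same libraries, and their part in these values was not tested. Islet identity was present in every library, with the 14 beta cell markers summing to between 209624 and 246366 CPM, most of it from Ins1, Ins2 and Iapp. Of these 14, 4 were higher in limma and 0 lower. The 4, named after their values were seen, were the glucose transporter gene Slc2a2 (268.3 and 295.8 CPM in control against 657.1 and 630.8 CPM), Trpm5, Glp1r and Slc30a8. The acinar list, 24 genes of the cells that secrete digestive enzymes, summed to 244.1 and 231.1 CPM in control and 154.5 and 161.5 CPM in cytoEV islets, with 6 of the 8 tested lower in limma. Most of that sum was the transcription factor gene Bhlha15, and without it the sums were 41.7 and 40.5 CPM against 19.3 and 21.8 CPM. Of the 24, 3 were listed at 0 in every library and 15 stayed below 1 CPM in all of them. The defining enzyme gene Ctrb1 had 6.06 and 4.57 CPM in control and 0.109 and 0.375 CPM in cytoEV islets. Summed stellate markers ranged from 344.5 to 401.8 CPM in control and from 274.9 to 299.8 CPM in cytoEV islets, endothelial markers from 56.8 to 57.8 and from 41.5 to 43.1, Schwann markers from 29.5 to 29.9 and from 17.03 to 18.7, and ductal markers from 448.8 to 454.3 and from 377.0 to 381.0 CPM. In limma 4 of 10, 3 of 8, 3 of 6 and 2 of 6 tested genes of these lists, in that order, were lower. Macrophage markers summed to between 320.8 and 327.9 CPM in control and between 321.6 and 333.7 CPM in cytoEV islets. Of the 13 macrophage genes tested, 1 was higher (Cx3cr1) and 1 lower (Cd14) in limma. At an unadjusted limma p under 0.05, 5 were higher and 3 lower. Over all genes tested limma called 3.16% higher and 3.51% lower, and 12.0% and 11.3% had an unadjusted p under 0.05.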

How the data were processed

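Per the submitters' processing notes, the build was mm10 and the tools were edgeR 3.1.1, R 3.6.1, StringTie 2.1.3 and TopHat2 2.0.6, with no role or order given. Per the labels' protocols, a stranded mRNA kit was used on 200 ng total RNA. The authors deposited a table of CPM values, and each column sums to 1000000. Division by the value of 1 read gave whole reads for 100% of the values, at a tolerance of 0.01 read. Column names were matched to the labels by group and replicate number.

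The filter kept the 12780 genes that reached 1 CPM in 2 or more libraries. On log2(CPM + 1), limma 3.58.1 (R 4.3.3) was fitted with group alone, which left 2 residual degrees of freedom, with a trend of variance on level, and p-values were adjusted by Benjamini-Hochberg over all genes kept. Calls are at an adjusted p under 0.05. On this scale the change of low genes is understated. EdgeR 4.0.16 (quasi-likelihood, TMM) called 322 genes higher and 402 lower on the recovered reads, and DESeq2 1.42.0 was run too. All 3 tests were tried on simulated counts that had the same spread in both groups. In these libraries the control pair differed more than the cytoEV pair (median absolute log2 difference 0.17 and 0.07 over all tested genes). That trial therefore cannot show how reliable the calls here are. The members and lists were chosen with earlier results of these data known. All members are named. From the other lists, up to 5 called genes with the smallest p are named, or up to 2 where none was called. Named outside this rule are Aimp1, Eef1e1, Slc7a11, Slc6a17, Slc38a2, Atf4, Irf1 and several cell type markers. Annotation is from GENCODE M21 and figures were drawn with Python 3.11.15 and matplotlib 3.10.9.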

Additional observations from a re-analysis of the deposited data

How the results depend on the processing

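Over the whole table limma called 404 genes higher and 449 lower. With no filter these counts were 149 and 179, and with a filter of 5 CPM 252 were higher. DESeq2 called 745 and 845. Leaving out 1 library gave between 149 and 2433 higher and between 229 and 1985 lower. For the synthetases other than Wars, leaving out 1 library gave 0 to 1 higher and 0 to 7 lower calls, and DESeq2 gave 3 lower. For the 14 other members it gave 0 to 1 higher and 0 to 7 lower, and DESeq2 gave 5 lower. For the 105 genes of neighbouring lists, the main counts of 3 higher and 6 lower became 0 and 1 with no filter, 1 higher without the intensity trend, 3 lower with a filter of 5 CPM and 3 lower without acinar and insulin genes, 16 lower in DESeq2, and 0 to 10 higher and 1 to 28 lower with 1 library left out. The causes were not tested. The log2 change of Wars ran from -0.26 to -0.13 with 1 library left out.

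The replicate numbers are shared by the groups, and the labels do not say whether same-numbered libraries were paired. Deviations of same-numbered libraries correlated at -0.22, a single value over genes that cannot decide this. A replicate block gave 481 genes higher and 512 lower and called Psat1 alone among the members. With the numbers crossed, a choice made after seeing the data, limma called 1469 higher and 1434 lower, 4 synthetases lower, 6 of the other members lower, and 8 higher and 25 lower in the neighbouring lists.

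Of 593 member values under 18 alternatives, 542 kept their direction and side of the threshold, 40 passed newly, 1 no longer passed and 10 changed sign. All 10 came from leaving out 1 library, where the log2 changes ran from -0.14 to 0.0587 for Farsb, -0.0802 to 0.14 for Gars, -0.13 to 0.0312 for Lars, -0.12 to 0.0534 for Rars, -0.44 to 0.0027 for Vars, -0.11 to 0.015 for Mthfd2, -0.13 to 0.0376 for Cth and -0.0081 to 0.21 for Cbs. At this depth 3 reads are between 0.0192 and 0.0231 CPM, which covers counting error only.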
